A study of Mus musculus with 6 samples.

Results

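The small leucine-rich proteoglycans are secreted matrix proteins, and 10 of their genes were followed here: Dcn, Bgn, Aspn, Lum, Fmod, Prelp, Omd, Ogn, Nyx and Podn. They were chosen by symbol, and all 10 were found among the 54146 genes counted. The transcripts came from tumors of 4T1 cells, a mouse mammary carcinoma line, which were either wild type or Mki67-/- that is, knocked out for Ki-67, a nuclear protein of dividing cells. Cells of either genotype were inoculated orthotopically, into the fat pad of the mammary gland, in Nude mice, a strain without a functional thymus, and the tumors were taken after 3 weeks. There were 3 libraries of each genotype, with the tumor and the host tissue within it sequenced together. How many knockout clones were used, and the age of the hosts, is not stated in the sources used here, so that a clone and the knockout cannot be told apart. Nothing in the labels says whether the libraries of a group came from separate mice, and the p-values measure the spread between these libraries only.

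The core proteins of the family are built of leucine-rich repeats, and most carry chondroitin, dermatan or keratan sulfate chains. In connective tissue they sit on collagen fibrils and regulate how the fibrils assemble and how thick they become. They also bind growth factors and receptors: decorin, the product of Dcn, holds transforming growth factor beta and binds the receptors Egfr and Met, and soluble biglycan, the product of Bgn, is recognized by the Toll-like receptors Tlr2 and Tlr4. Fibroblasts and related mesenchymal cells are their usual source, and in a tumor they are known as stromal genes.

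The gene totals were 37065778 to 38399826 read pairs in wild-type and 22081970 to 30772729 in knockout libraries. Levels are given as CPM, the read pairs of a gene relative to the library total after scaling by edgeR's TMM factors. Mki67 itself was 3.04-fold lower in the knockout group, with every knockout library below every wild-type library. The share of pairs left unmapped was 31.2% to 33.9% for wild type, and for knockout replicates 1, 2 and 3 it was 30.8%, 54.6% and 52.7%. The labelled carcinoma was reflected in the epithelial markers Epcam, Krt7, Krt8 and Krt18, which were above 100 CPM in all 6 libraries. Other markers of the same list, Cdh1, Cldn3, Cldn4, Cldn7, Krt19 and Rab25, fell below that level in wild-type tumors. Their wild-type means ran from 0.836 CPM for Rab25 to 105 CPM for Cdh1. Epcam itself rose 7.70-fold from a wild-type mean of 117 CPM, so the level of such markers differed between the groups. Across the 19900 genes tested, 17.6% were higher and 18.4% lower in knockout tumors at an adjusted p under 0.05. For 24.5% of them every knockout library lay above every wild-type library.

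Of the 10 proteoglycan genes, 9 had enough counts to be tested. In the knockout tumors 8 of these were higher and 0 were lower (edgeR quasi-likelihood test with Benjamini-Hochberg adjustment over all genes), and 0 were lower at an unadjusted p under 0.05 or with DESeq2. The same 8 genes were those in which the groups did not overlap. The median log2 fold change of the 9 was 1.02, beside 0.05 over all genes tested. At least 2-fold rises were seen for 5 of them, against 9.48% of all genes tested. Fmod rose most, and Podn, Prelp and Bgn rose by 3.71-fold to 4.77-fold, in an order that changed without knockout replicate 2. Lum, Dcn and Ogn rose by less than 2-fold. The exceptions were Omd, which did not pass the test, and Nyx, which was barely counted. In bulk RNA, more cells of a type cannot be told apart from more RNA per cell.

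**Figure D1:**
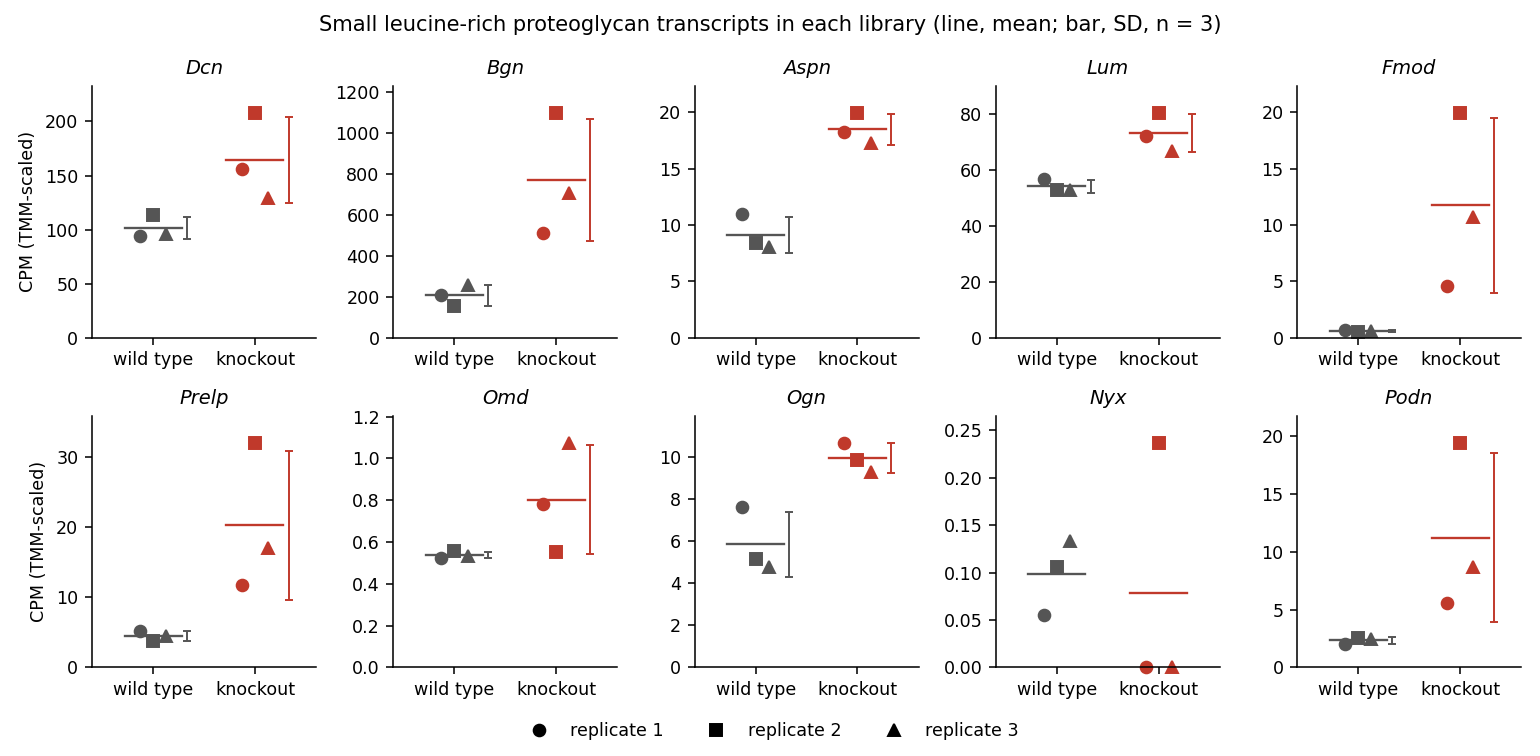
Level of each of the 10 genes in CPM (vertical axis, from 0, with its own scale per gene) in each library, with wild type in grey and knockout in red. Lines are group means and bars are SD (n = 3, not drawn for Nyx), and the groups do not overlap in 8 of the 10 panels, the exceptions being Omd and Nyx.

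The genes lie in several family clusters on GRCm38. On chromosome 10, Dcn (ENSMUSG00000019929, 97479609 to 97518143, plus strand) is followed by Lum (ENSMUSG00000036446, 97565128 to 97572703, plus strand) after 46984 bases. On chromosome 1, Prelp (ENSMUSG00000041577, 133910304 to 133921414, minus strand) lies 115839 bases from Fmod (ENSMUSG00000041559, 134037254 to 134048277, plus strand). Aspn (ENSMUSG00000021388, 49544443 to 49567565), Omd (ENSMUSG00000048368, 49582462 to 49592822) and Ogn (ENSMUSG00000021390, 49608046 to 49624501) stand in a row on the plus strand of chromosome 13, all within the span of Cenpp, a centromere protein gene on the minus strand. Bgn (ENSMUSG00000031375, 73483602 to 73495933, plus strand) and Nyx (ENSMUSG00000051228, 13466110 to 13489313, plus strand) are on chromosome X, and Podn (ENSMUSG00000028600, 108014791 to 108096445, minus strand) is on chromosome 4. The counts do not separate strands. Exons of other genes cover 9.68% of the exonic bases of Prelp and 0.297% of those of Aspn, and 0% of those of the other eight.

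Set side by side by cluster, Fmod rose 19.3-fold and Prelp 4.50-fold on chromosome 1, and Dcn rose 1.62-fold and Lum 1.35-fold on chromosome 10. On chromosome 13 Aspn rose 2.02-fold and Ogn 1.70-fold, and Omd, at 1.48-fold, did not pass. Differences between neighbours were not tested. RefSeq promoter windows (GRCm38.p6) were matched for 8 of the 10 genes, with 9 windows in all, since Podn has a pair of start sites. The 250 bases before the start site are printed for 2 genes whose knockout libraries differed widely, Bgn and Fmod, and for 2 whose knockout libraries lay close together, Aspn and Ogn. Capitals mark matches, on either strand, to a TATA box (TATAAA), a GC box (GGGCGG), an AP-1 site (TGANTCA) or a Smad box (CAGAC). The windows are chrX:73483351-73483600 for Bgn, chr1:134037004-134037253 for Fmod, chr13:49544193-49544442 for Aspn and chr13:49607765-49608014 for Ogn, all on the plus strand and read 5′ to 3′.
Bgn: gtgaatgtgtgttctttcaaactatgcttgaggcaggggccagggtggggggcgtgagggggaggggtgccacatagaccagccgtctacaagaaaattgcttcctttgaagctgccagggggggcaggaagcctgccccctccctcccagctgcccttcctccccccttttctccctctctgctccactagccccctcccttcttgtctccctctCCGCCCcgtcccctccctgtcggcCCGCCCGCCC
Fmod: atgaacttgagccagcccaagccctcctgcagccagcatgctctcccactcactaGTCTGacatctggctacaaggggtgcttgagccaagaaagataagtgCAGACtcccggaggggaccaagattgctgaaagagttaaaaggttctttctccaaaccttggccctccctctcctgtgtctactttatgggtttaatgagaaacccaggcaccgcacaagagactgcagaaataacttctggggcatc
Aspn: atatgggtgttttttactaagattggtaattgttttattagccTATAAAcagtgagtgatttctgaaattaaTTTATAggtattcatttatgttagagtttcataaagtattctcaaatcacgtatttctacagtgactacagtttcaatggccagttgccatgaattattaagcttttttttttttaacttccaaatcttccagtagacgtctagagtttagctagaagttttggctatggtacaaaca
Ogn: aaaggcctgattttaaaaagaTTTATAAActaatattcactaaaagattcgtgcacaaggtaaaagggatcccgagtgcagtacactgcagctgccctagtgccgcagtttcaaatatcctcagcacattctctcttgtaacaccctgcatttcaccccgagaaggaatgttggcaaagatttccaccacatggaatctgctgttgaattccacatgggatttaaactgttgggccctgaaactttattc

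The windows differ in composition. That of Bgn is 64.4% G or C, that of Fmod 51.2%, that of Ogn 42% and that of Aspn 30%, where the median of 32851 RefSeq promoter windows of the same length is 52.4%. The GC box occurs 3 times in the Bgn window, starting 34, 10 and 6 bases before the start site, and the last pair overlap. It also occurs in 1 of the Podn windows, and in 32.7% of all windows. Aspn and Ogn hold the TATA letters, in Ogn as overlapping matches on opposite strands, 227 and 229 bases before the start, and 12.4% of all windows have them. The Smad box letters occur in Fmod, 195 and 148 bases before the start, and in Prelp, and in 42.2% of all windows. The AP-1 letters, present in 6.75% of windows, are in none of the 9 windows of the family. A match to such letters is a description of the sequence and not a measured binding site.

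Biglycan, decorin and asporin form the first class of the family. Bgn stood at 209.6, 155.6 and 257 CPM in wild-type tumors and at 511, 1096 and 704 CPM in knockout replicates 1, 2 and 3. Each knockout value was more than the largest wild-type value, and replicate 2 stood highest. Group means were 208 CPM ± 50.9 and 770.2 CPM ± 298 (SD, n = 3 each), which is a 3.71-fold rise (log2 fold change 1.89, SE 0.28; edgeR adjusted p = 0.00134). The call was kept in all 18 alternative fits, over log2 fold changes of 1.23 to 2.22.

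Dcn moved less. It was at 94.4, 114 and 96.3 CPM in wild-type tumors and at 156, 208 and 129 CPM in knockout replicates 1, 2 and 3. The groups did not overlap, though knockout replicate 3 was only a little above wild-type replicate 2. The rise was 1.62-fold (log2 fold change 0.70, SE 0.17; edgeR adjusted p = 0.0129). It missed the threshold when wild-type replicate 1 (adjusted p = 0.0799) or 3 (adjusted p = 0.0672) was left out and when the fit held each library's unmapped share (adjusted p = 0.0647), over a range for Dcn of 0.00011 to 0.0799. Without knockout replicate 2 the log2 fold change fell to 0.45 and the call held.

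Aspn encodes asporin, which has an aspartate-rich stretch and binds collagen and transforming growth factor beta. It was at 10.96, 8.42 and 8.02 CPM in wild-type and 18.2, 19.9 and 17.3 CPM in knockout replicates 1, 2 and 3. Within the knockout group these values lie close together, well above all wild-type ones. Aspn rose 2.02-fold (log2 fold change 1.02, SE 0.15; edgeR adjusted p = 0.00123), and the log2 value stayed between 0.88 and 1.15 with its call over the 18 alternatives.

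Fibromodulin, lumican, prolargin and osteomodulin, of the second class, can carry keratan sulfate or bind the same region of collagen. Fmod was nearly silent in wild-type tumors, at 0.718, 0.503 and 0.588 CPM. It reached 4.59, 19.9 and 10.7 CPM in knockout replicates 1, 2 and 3, so that even the lowest knockout library was several times above the highest wild-type one. In read pairs this was 26, 19 and 22 against 141, 505 and 248. This is a 19.3-fold rise (log2 fold change 4.27, SE 0.53; edgeR adjusted p = 0.000509). The log2 value was 3.59 without knockout replicate 2 and 2.86 among libraries with under 40% unmapped pairs, where knockout replicate 1 stands alone, and the call held in both.

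Prelp encodes prolargin, which anchors basement membranes to the collagen beneath. It was at 5.22, 3.81 and 4.46 CPM in wild-type libraries and at 11.7, 32.1 and 16.99 CPM in knockout replicates 1, 2 and 3. The order of the knockout libraries was that of Fmod and Bgn, with replicate 2 highest and replicate 1 lowest. Prelp rose 4.50-fold (log2 fold change 2.17, SE 0.34; edgeR adjusted p = 0.00181), and the log2 value was 1.62 without knockout replicate 2. Exons of Gm15851 overlap 9.68% of its exonic bases.

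Lum changed least among the genes that passed. Lumican, its product, keeps collagen fibrils thin and evenly spaced, as in the cornea. Values were 56.9, 52.8 and 53.0 CPM in wild-type and 72.4, 80.5 and 66.9 CPM in knockout replicates 1, 2 and 3. Both groups were tight and did not overlap. The rise was 1.35-fold (log2 fold change 0.43, SE 0.10; edgeR adjusted p = 0.00866). Lum did not pass when wild-type replicate 1, 2 or 3 was left out (adjusted p = 0.0568, 0.0776 and 0.0671) and with no filter on low counts (adjusted p = 0.0656), over a range for Lum of 0.00219 to 0.0776.

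Omd, the gene of osteomodulin, a keratan sulfate proteoglycan of bone, was near the limit of counting. It was at 0.525, 0.556 and 0.534 CPM in wild-type and 0.781, 0.553 and 1.08 CPM in knockout libraries, from 14 to 25 read pairs each. Knockout replicate 2 lay inside the wild-type range and the groups overlapped. Its difference (log2 fold change 0.57, SE 0.36; edgeR adjusted p = 0.243) did not pass here or in any of the 16 alternatives that tested it, over adjusted p-values from 0.103 to 0.877.

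Ogn encodes osteoglycin, also called mimecan, of the third class. Its levels were 7.62, 5.16 and 4.78 CPM in wild-type libraries and 10.7, 9.88 and 9.29 CPM in knockout replicates 1, 2 and 3. The knockout libraries were even, and wild-type replicate 1 was the nearest to them. Ogn rose 1.70-fold (log2 fold change 0.77, SE 0.19; edgeR adjusted p = 0.0155). Leaving out wild-type replicate 2 or 3 (adjusted p = 0.0791 and 0.0875) or adding the share of pairs outside exons as a covariate (adjusted p = 0.0534) ended the call, over a range for Ogn of 0.00511 to 0.0875. In the covariate fit the log2 fold change was 0.80.

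Podn encodes podocan, of the fifth class, described in vessel walls and kidney. It was at 1.99, 2.57 and 2.46 CPM in wild-type and at 5.53, 19.4 and 8.65 CPM in knockout replicates 1, 2 and 3. All knockout values exceeded the wild-type ones and replicate 2 stood far above the other two. Podn rose 4.77-fold (log2 fold change 2.25, SE 0.42; edgeR adjusted p = 0.0041), with log2 values of 1.54 without knockout replicate 2 and 1.18 among libraries with under 40% unmapped pairs, both still past the threshold. Nyx, of the fourth class, encodes nyctalopin, a protein of retinal bipolar cells. It had 2, 4 and 5 read pairs in wild-type and 0, 6 and 0 in knockout libraries, and was too low to test. A count of 0 allows up to 3 read pairs, or 0.0975 CPM in knockout replicate 1 and 0.136 CPM in replicate 3, for counting error only.

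The knockout libraries were then set apart, each against the mean of the 3 wild-type libraries on the log2 CPM scale with a prior count of 2. For Fmod the differences were 2.82, 4.92 and 4.02 in knockout replicates 1, 2 and 3. They were 1.23, 3.03 and 1.87 for Podn, 1.38, 2.83 and 1.91 for Prelp, and 1.33, 2.43 and 1.79 for Bgn. In these 4 genes the order of the knockout libraries was the same. Aspn (1.00, 1.14 and 0.93) and Ogn (0.89, 0.78 and 0.69) had nearly equal differences in all 3 libraries. Dcn (0.63, 1.04 and 0.35) and Lum (0.42, 0.57 and 0.30) were lowest in replicate 3.

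**Figure D2:**
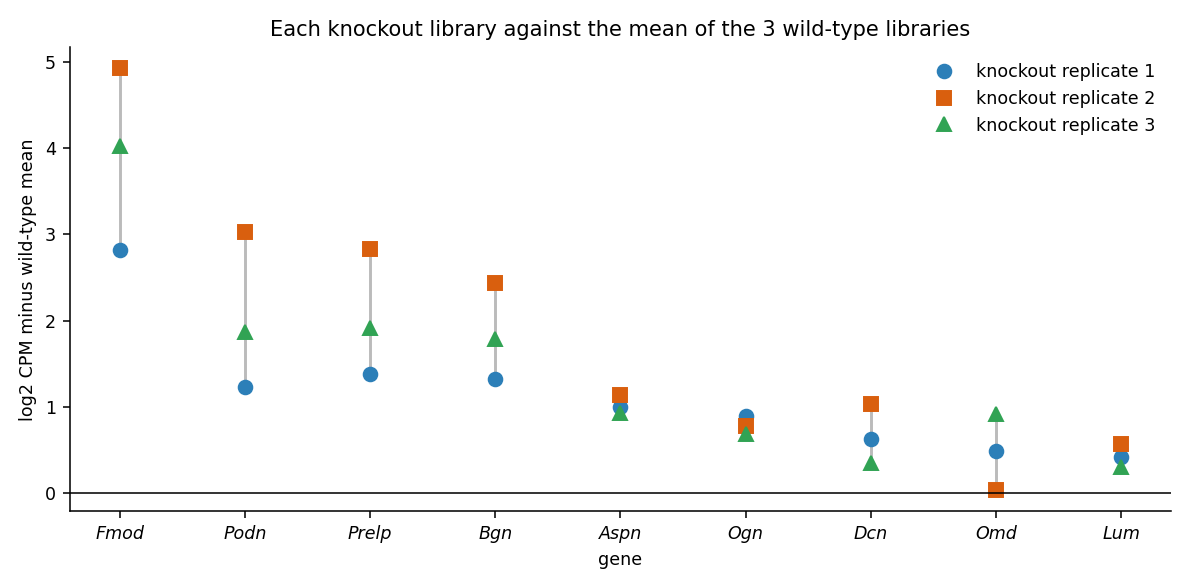
Difference of each knockout library from the wild-type mean, in log2 CPM (vertical axis), for the 9 tested genes ordered by fold change (horizontal axis). The points of Fmod, Podn, Prelp and Bgn spread widely with replicate 2 on top (1.33 to 2.43 for Bgn), while those of Aspn (0.93 to 1.14) and Ogn (0.69 to 0.89) lie close together.

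Knockout replicate 2 was the highest knockout library for 7 of the 8 genes that rose, where it was the highest for 60.9% of the 3506 genes that rose in all. Its CPM was 4.35 times that of knockout replicate 1 for Fmod, 3.51 times for Podn, 2.74 times for Prelp and 2.15 times for Bgn. The ratio was 1.33 for Dcn, 1.11 for Lum, 1.10 for Aspn and 0.923 for Ogn. For the collagen gene Col1a1 it was 2.38, and for the adipocyte gene Adipoq 3.43. Col1a1 and Adipoq were named after their values were seen, and the ratio varied within their lists. It was 2.20 for Col11a1 and 1.30 for Col5a2 among fibrillar collagens, and 3.58 for Car3 and 1.10 for Lep among adipocyte genes. Knockout replicate 2 was also the library with the largest share of unmapped pairs, and the part of that share in these values was not tested beyond the covariate fit. That fit gave log2 fold changes of 3.02 for Fmod, 1.43 for Prelp, 1.36 for Bgn and 1.32 for Podn, all past the threshold. The main fit gave 4.27, 2.17, 1.89 and 2.25 for these genes. Only knockout replicates 2 and 3 had high unmapped shares, so the knockout difference in the covariate fit rests mainly on knockout replicate 1.

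To compare genes with each other, counts were divided by the length of the union of exons and scaled to the same total in every library (TPM). In wild-type tumors Bgn stood highest at 98.2 TPM ± 24.2, followed by Lum at 63.9 TPM ± 1.35 and Dcn at 50.3 TPM ± 6.0 (SD, n = 3 each). Aspn (11.2 TPM ± 1.71), Ogn (6.57 TPM ± 1.58), Prelp (3.59 TPM ± 0.49) and Podn (1.58 TPM ± 0.24) came next, then Omd (0.692 TPM ± 0.033), Fmod (0.525 TPM ± 0.083) and Nyx (0.055 TPM ± 0.023). In knockout tumors Bgn was at 365 TPM ± 142, with Lum (86.1 TPM ± 7.21) and Dcn (81.0 TPM ± 19.0) within each other's spread. Aspn (22.6 TPM ± 1.49), Prelp (16.2 TPM ± 8.42), Ogn (11.2 TPM ± 0.46), Fmod (10.3 TPM ± 6.75) and Podn (7.56 TPM ± 4.89) followed there, each overlapping the next. In wild-type tumors no neighbours in the order of the 10 levels overlapped. Fmod thus passed from a level below that of Omd (1.03 TPM ± 0.36 in knockout tumors) to one near that of Ogn. With the longest transcript as the length, Lum and Dcn overlapped in wild-type tumors, at 48.4 to 50.2 TPM and 43.5 to 54.5 TPM over the libraries.

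The 10 levels per length summed to 236, 217 and 256 TPM in wild-type and 443, 805 and 554 TPM in knockout replicates 1, 2 and 3, a 2.47-fold higher geometric mean. The groups did not overlap, and the exact two-sided permutation test gave p = 0.10, the smallest that 3 against 3 allows. The makeup of the sum also differed. The shares are parts of one whole, so they are not separate results. Bgn is the largest part, and its rise lowers the shares of Lum and Dcn, whose own levels rose. Bgn made up 41.0%, 34.4% and 48.0% of it in wild-type and 52.9%, 64.1% and 61.98% in knockout libraries, while Lum went from 27.1% ± 2.27 to 15.0% ± 3.49 and Dcn from 21.4% ± 4.16 to 13.8% ± 2.71 (SD, n = 3 each). Fmod went from 0.222% ± 0.032 to 1.59% ± 0.65 and Prelp from 1.52% ± 0.18 to 2.58% ± 0.56. For each of these 5 shares the groups did not overlap, with p = 0.10 in the exact permutation test and 0.143 after adjustment over the 10 shares. The same held for Podn, with means of 0.674% and 1.18%, and for Omd, with means of 0.294% and 0.188%, in wild-type and knockout tumors. The shares depend on the length used, as the mean wild-type level of Bgn was 172 TPM by the longest transcript in place of 98.2. By that length the difference was 16.3 percentage points for Bgn in place of 18.5. It was -8.83 in place of -12.1 for Lum and -7.38 in place of -7.61 for Dcn. For Fmod it was 0.77 in place of 1.37, and for Prelp 0.46 in place of 1.06. It was 0.26 in place of 0.50 for Podn and -0.08 in place of -0.11 for Omd. By the longest transcript the exact permutation test gave p = 0.20 for the share of Podn. With a stranded column of counts the exact permutation test gave p = 0.20 for the share of Omd. The Omd share rests on 14 to 25 read pairs per library.

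**Figure D3:**
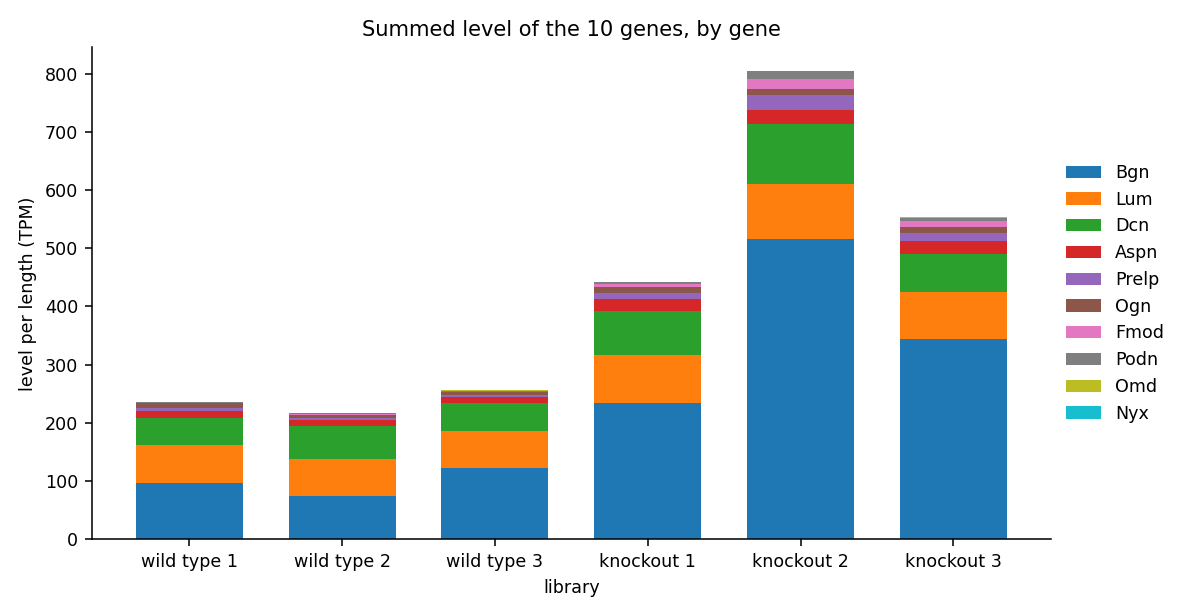
Stacked levels per length of the 10 genes in TPM (vertical axis, from 0) in each of the 6 libraries (horizontal axis), one color per gene. The sum is 217 to 256 TPM in wild-type and 443 to 805 TPM in knockout libraries, and the Bgn layer grows more than those of Lum and Dcn.

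The ratio of Bgn to Dcn is taken within a library, so it does not depend on the scaling of that library. It was 2.12, 1.31 and 2.56 in wild-type and 3.13, 5.05 and 5.23 in knockout replicates 1, 2 and 3, or 1.997 ± 0.633 against 4.47 ± 1.16 (SD, n = 3 each). Every knockout library was above every wild-type library (exact two-sided permutation p = 0.10, the smallest possible). With the longest transcript as the length, the ratios were 3.67 ± 1.16 and 8.21 ± 2.14, and the log2 difference between the groups was 1.18 by either length.

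Of 8 further members of the family, 5 could be tested. Ecm2, which lies beside Aspn on chromosome 13, rose by 1.48 on the log2 scale (SE 0.38), Podnl1, a relative of Podn, by 0.87 (SE 0.12) and Chadl by 1.48 (SE 0.45), and 0 fell. Wild-type means were low for Ecm2 (0.767 CPM) and Chadl (0.430 CPM), against 27.9 CPM for Podnl1. Other genes share 19.5% of the exonic bases of Chadl. Tsku (log2 fold change -0.05, adjusted p = 0.774) and Chad (log2 fold change -1.66, adjusted p = 0.126) did not pass. Kera, Epyc and Optc, known from cornea, cartilage and eye, were at 0.514 CPM or less in every library and were not tested. The fibrillar collagen chains, on which the proteoglycans sit, rose for 7 of 8 tested, with 0 lower. Their median log2 fold change was 1.00. The counts for both lists stand beside 17.6% higher and 18.4% lower among all genes tested. Col11a1 rose 8.64-fold from a mean of 1.27 CPM, and Col5a2 2.02-fold from a mean of 258 CPM. Col1a1 had means of 1132 CPM ± 208 and 3177 CPM ± 1349 (SD, n = 3 each), a 2.81-fold rise.

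The enzymes that build the sugar chains are given by their counts, which stand beside 17.6% higher and 18.4% lower among all genes tested. Of the 7 genes of the shared linker, 0 were higher and 1 was lower, Pxylp1, a xylose phosphatase (log2 fold change -0.29). The xylosyltransferase genes Xylt1 (log2 fold change -0.25, edgeR adjusted p = 0.297) and Xylt2 (0.10, edgeR adjusted p = 0.382), which start this linker on the core protein, did not pass. Chondroitin and dermatan sulfate enzymes were lower for 6 of 16 and higher for 1. Dse, the epimerase that turns chondroitin into dermatan sulfate, was at 50.97, 50.2 and 50.3 CPM in wild-type and 29.0, 24.8 and 24.0 CPM in knockout libraries, without overlap (log2 fold change -0.96, SE 0.10, edgeR adjusted p = 0.0002). Chst11, a chondroitin sulfotransferase gene, fell by 0.95, and Chsy3, a chondroitin synthase gene at 0.394 CPM in wild-type tumors, rose by 1.37. Keratan sulfate enzymes were lower for 2 of 6 tested and higher for 1. B4galt1 fell by 0.60 and B3gnt2 by 0.64, while B4galt4 rose by 0.42, and 66% of the exonic bases of B3gnt2 are shared with other genes.

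Of 14 proteases that process or cut these proteins, 8 were higher and 1 was lower, beside 17.6% and 18.4% of all genes tested. Bmp1, which removes the propeptide of biglycan and of fibrillar procollagens, had means of 624 and 1113 CPM and rose 1.78-fold (edgeR adjusted p = 0.00198). Mmp13, a collagenase that can also cut members of the family, rose 12.0-fold, from 50.4 to 605 CPM, and Adamts9 fell by 0.45. Of 19 growth factors and receptors with which the proteoglycans interact, 7 were higher and 4 lower, beside 17.6% and 18.4% of all genes tested, and the median log2 fold change was -0.05, against 0.05 over all genes. Ccn2 rose by 1.70 and Pdgfa by 1.57, with 23.2% and 26.1% of their exonic bases shared with other genes. Tlr2, a receptor of soluble biglycan, fell by 1.09, from 54.3 to 25.6 CPM, and Igf1r by 0.93. Tlr4, the other such receptor and named after its values were seen, fell by 1.48, with means of 36.8 and 13.2 CPM (edgeR adjusted p = 0.000279). Tgfb1 (log2 fold change -0.14, adjusted p = 0.526) did not pass, and Tgfb2 rose by 1.64 from 5.60 CPM.

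**Figure D4:**
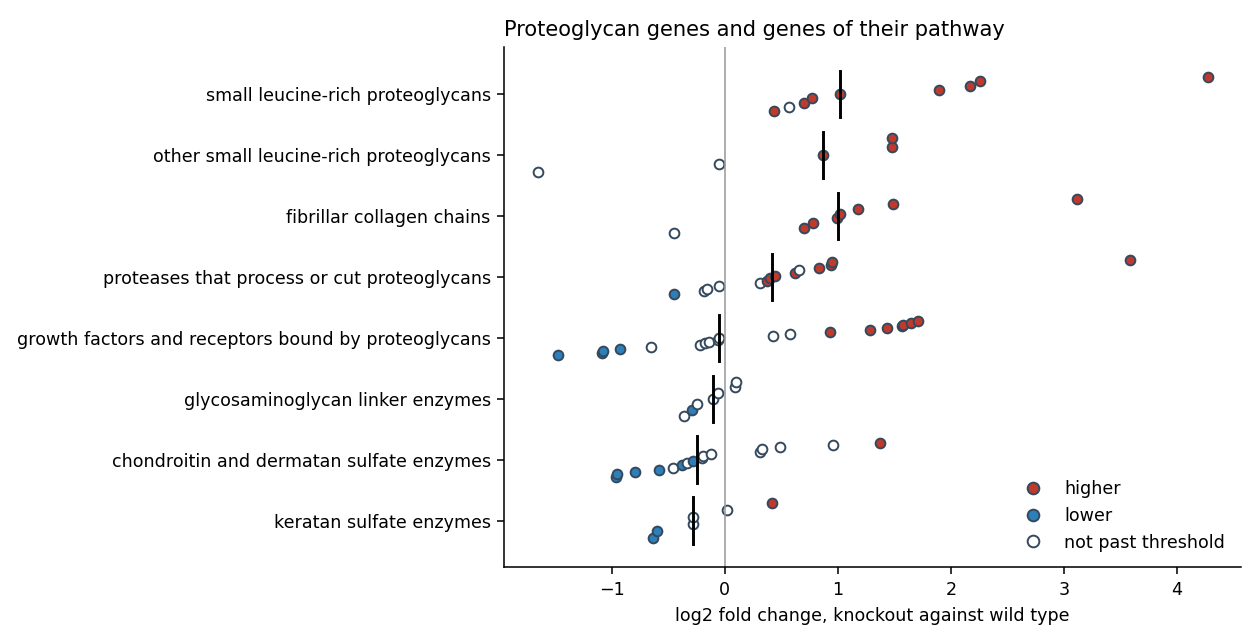
Log2 fold change, knockout against wild type (horizontal axis), of every tested gene in 8 lists (vertical axis), with black lines at the medians and filled points for genes past the threshold. The medians of the family (1.02) and of the fibrillar collagens (1.00) lie to the right, and those of the 3 lists of sugar-chain enzymes lie at -0.11, -0.24 and -0.28.

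Marker lists of several cell types differed between the groups, though not all in the direction of the proteoglycans. The counts do not say whether a transcript came from tumor or host cells. Fibroblast markers were higher for 15 of 20 and lower for 3, among them Pdgfra, and their summed level without Fn1, which alone made up most of the sum, was 1523 to 1788 CPM in wild-type and 3376 to 4372 CPM in knockout libraries. With Fn1, which fell, the sum was 13289 to 16065 and 9393 to 12901 CPM. Pericyte and smooth muscle markers were higher for 8 of 10 (154 to 194 and 381 to 650 CPM summed), adipocyte markers for 11 of 12 (211 to 261 and 552 to 1552 CPM), skeletal muscle markers for 10 of 12 (189 to 220 and 219 to 244 CPM) and keratinocyte markers for 11 of 11 (77.3 to 135 and 752 to 1657 CPM). Carcinoma epithelial markers were higher for 9 of 10 (2898 to 3008 and 6090 to 6543 CPM) and endothelial markers for 1 of 9 (245 to 341 and 239 to 313 CPM). Macrophage markers were lower for 11 of 11 (5605 to 6508 and 991 to 1197 CPM). All these counts stand beside 17.6% higher and 18.4% lower among all genes tested. No gene of these lists was at 0 in all 6 libraries, and skeletal muscle sums overlapped between the groups, as did endothelial ones.

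The markers with the smallest p in each direction are named next, and they do not stand for the size of change of their lists. Among fibroblast genes, Postn and Fbln2, which encode matrix proteins, rose by 1.33 and 1.38 on the log2 scale, while Pdgfra, a receptor gene of fibroblasts, fell by 0.68 and Fn1, the gene of fibronectin, by 0.80. Notch3 and Cnn1, genes of mural and smooth muscle cells, rose by 2.59 and 2.02, and the adipocyte genes Lep and Car3 by 2.74 and 3.09. For Car3 the wild-type mean was 20.1 CPM ± 4.23 and the knockout mean 172 CPM ± 116 (SD, n = 3 each). Tnni2 and Mb, of skeletal muscle, rose by 1.08 and 2.30, with 31.9% of the exonic bases of Mb shared with other genes. Krt14 and Trp63, of basal keratinocytes, rose by 4.29 and 3.04, and the epithelial keratin genes Krt7 and Krt19 by 3.24 and 5.32, while Krt8 did not pass (log2 fold change 0.18, adjusted p = 0.223). Lyz2 and Msr1, of macrophages, fell by 3.46 and 2.97, and Emcn, the 1 endothelial marker of 9 that passed, rose by 0.46. The median log2 fold change was -0.07 over the endothelial list, 1.22 over the skeletal muscle list and 2.72 over the carcinoma list. Their part in the rise of the proteoglycan transcripts was not tested.

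By the root mean square distance between patterns over the 6 libraries, in log2 CPM less the wild-type mean, the genes most like Bgn among 10056 with a mean of at least 10 CPM were Serpinf1 (distance 0.08), Acta2 (0.08) and Aebp1 (0.15). Acta2 encodes smooth muscle actin, used as a mark of activated fibroblasts and mural cells, and was at 83.2, 66.7 and 97.7 CPM in wild-type and 204, 398 and 276 CPM in knockout libraries. Serpinf1, the gene of a secreted serpin, was at 43.5, 30.3 and 45.2 CPM and at 93.6, 209 and 132 CPM. Both were picked for their closeness to Bgn over these same libraries, so the order of the knockout libraries that they share with Bgn follows from that choice. The genes nearest to Omd, mt-Rnr2 (0.11), S100a8 (0.14) and Arap2 (0.16), were matched to a gene with only 14 to 25 read pairs per library.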

How the data were processed

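Transcripts were measured by RNA sequencing in 3 wild-type and 3 Mki67-/- tumor libraries, grouped and numbered by their titles. The deposited tables hold raw counts of read pairs per gene, and STAR 2.6.0c, FastQC, DESeq2 and GRCm38 are named in the submitters' processing notes, with no role given. The layout matches STAR's per-gene output, where ambiguous and multimapping pairs go to no gene (ambiguous 4.98% to 6.23% of uniquely mapped pairs, multimapping 3.12% to 4.39% of all pairs). The 4 rows that name no gene were left out. The unstranded column was used, since the first stranded column held 50.1% to 50.2% of stranded counts.

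Symbols, coordinates and exon lengths came from GENCODE M21 (GRCm38), which matched 54079 of 54146 identifiers, and promoters from RefSeq. The count model was edgeR 4.0.16 under R 4.3.3 (filterByExpr, TMM, glmQLFit, glmQLFTest, Benjamini-Hochberg over 19900 genes, threshold 0.05), and the steps were tested on simulated data. SE is the absolute log2 fold change over the square root of F. Levels per length and ratios were tested with exact permutation tests in scipy 1.17.1. The alternatives were DESeq2 1.42.0, RLE or no scaling factors, no or a stricter filter (1 CPM in 3 libraries), a stranded column, a robust fit, each library left out, a replicate block, abundant genes left out (mitochondrial and the top 20), a covariate for unmapped pairs or for pairs outside exons, libraries under 40% unmapped, and another gene length.

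The 10 genes and the 17 other lists were chosen with earlier results of these data known. All 10 are named, as are the 2 genes with the smallest p in each direction of every other list, and the 3 genes nearest in pattern to the most abundant gene that rose and to the most abundant that did not. Xylt1, Xylt2, Chadl, Tsku, Chad, Kera, Epyc, Optc, Tgfb1, Tgfb2, Epcam, Krt8, Krt18, Cdh1, Cldn3, Cldn4, Cldn7, Rab25, Col1a1, Adipoq and Tlr4 were named after their values were seen.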

Additional observations from a re-analysis of the deposited data

How the results depend on the processing

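None of the 160 alternative values for the 9 tested genes reversed in direction. Bgn, Aspn, Fmod, Prelp and Podn kept their calls in all 18 alternative fits. The number of family genes higher ranged from 5, without wild-type replicate 3, to 8 when single libraries were left out, and 0 were lower in every alternative. Over all genes, 1821 to 4648 were higher and 2257 to 4778 lower when single libraries were left out. With the unmapped share as a covariate 2333 genes were higher, and with that of pairs outside exons 2238 were lower. The cause was not tested. Where only libraries with under 40% unmapped pairs were used, the lone knockout library was assumed to vary like the wild-type ones.

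Same-numbered libraries did not deviate together (correlations across genes of 0.05, -0.21 and -0.24). With 3 libraries per group these values cannot exclude a pairing, and the labels do not say that the numbers mark one. With the replicate block, 8 family genes, 3082 genes in all higher and 3580 lower passed. The log2 difference in summed level stayed between 1.07 and 1.51 and that in the ratio of Bgn to Dcn between 0.90 and 1.42. Omd and Nyx are limited by depth.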

Other observations

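Of 10 tested proteoglycan genes of other families, 5 were higher and 1 lower in knockout tumors, beside 17.6% and 18.4% of all genes tested. Agrn, the basement membrane proteoglycan agrin, rose from 252 CPM ± 19.6 to 457 CPM ± 24.2 (log2 fold change 0.86, edgeR adjusted p = 0.000276), and Vcan, the large matrix proteoglycan versican, from 20.5 CPM ± 0.11 to 34.2 CPM ± 7.15 (SD, n = 3 each). Srgn, serglycin, which is packed into the granules of blood cells, fell by 0.73, from 172 CPM ± 19.99 to 104 CPM ± 4.87.

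Markers of tendon, cartilage and bone, tissues rich in the family, were higher for 5 of 8 tested and lower for 1, beside the same shares of all genes. Ibsp, a sialoprotein of bone, rose 8.65-fold, from 1.13 to 9.84 CPM, and Sox9, a transcription factor of cartilage and of epithelia, 1.81-fold. Scx, the transcription factor gene scleraxis of tendon, fell by 0.69, from 86.0 to 53.3 CPM.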
